A study of Mus musculus with 6 samples.

Results

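Glo1, Btbd9, Dnah8 and the long non-coding RNA gene 1700097N02Rik lie side by side or overlapping on mouse chromosome 17. They were chosen by name from the gene table because their values differed between ICOS KO and WT libraries, so their difference is described here without a test. They are 4 of 18122 genes in the table, and all 4 passed the filter on low counts that left 13691 genes tested. Messenger RNA was measured in 6 libraries of group 2 innate lymphoid cells (ILC2s), lymphocytes without antigen receptors that release type 2 cytokines, sorted from the lung and kept in culture. The 3 ICOS KO libraries came from mice labelled C.129S4-Icostm1Shr/J, in which Icos, encoding the inducible co-stimulator receptor, has been targeted. The 3 WT libraries came from mice labelled BALB/C BYJ. The series' design text speaks of duplicates, but each genotype has 3 libraries here. Neither group had a further treatment in its label, and the labels give no age. A difference in strain DNA and the loss of Icos cannot be told apart in this design, because the strain name differs with the genotype.

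Glyoxalase 1, the product of Glo1, clears methylglyoxal, a reactive by-product of glycolysis, with glutathione as cofactor. Glyoxalase II, encoded by Hagh, completes the step to D-lactate and frees the glutathione, and D-lactate dehydrogenase, encoded by Ldhd, oxidises D-lactate further. Btbd9 encodes a BTB-domain protein that can act as an adaptor of cullin 3 ubiquitin ligases; variants at the human gene are associated with restless legs syndrome, and the mouse gene has been linked to iron handling. Dnah8 encodes a dynein heavy chain of the sperm flagellum. The chromosome segment around Glo1 is known to vary in copy number among inbred mouse strains, with more Glo1 RNA where extra copies are present. Genomic DNA was not measured in these libraries.

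Positions are those of GENCODE M21 on GRCm38, the assembly that the build name mm10 stands for. Btbd9 (ENSMUSG00000062202.14) runs along the minus strand of chromosome 17 from 30215524 to 30576488. Glo1 (ENSMUSG00000024026.13) follows on the same strand from 30584936 to 30626871, after a gap of 8447 bases. Dnah8 (ENSMUSG00000033826.10) lies on the plus strand from 30624354 to 30877365. The RNA 1700097N02Rik (ENSMUSG00000099474.1) is on the minus strand from 30622441 to 30626905 and has the GENCODE type of a long non-coding RNA from a bidirectional promoter. It overlaps the start of Dnah8. It shares 90 exon bases with Glo1 on the same strand and 207 with Dnah8 on the opposite strand, out of 845 exon bases of its own. Reads there could have been divided between the 3 genes in counting, and the sources used here do not give the strand setting. In RefSeq the layout differs: Glo1 runs from 30592861 to 30612659, 1700097N02Rik has the same span as in GENCODE, and Dnah8 starts at 30626935. These 3 genes do not overlap there, and the sources used here do not say which annotation the counting used. Btbd9 shares no exon base with the other 3. The whole segment spans 661842 bases.

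**Figure D1:**
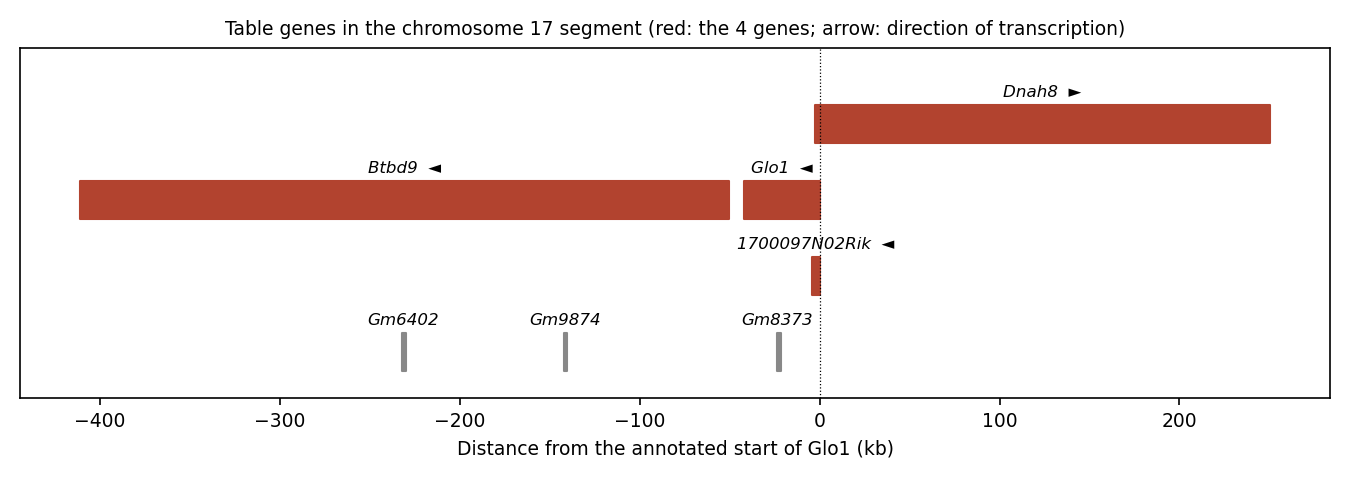
Genes of the deposited table that lie in the segment, drawn to scale against the distance in kb from the GENCODE start of Glo1; red bars are the 4 genes with arrows for the direction of transcription, and grey bars are the other 3 table genes there (drawn at least 2 kb wide). Btbd9 and Glo1 point the same way, and in GENCODE M21 Dnah8 starts inside the stretch that Glo1 and 1700097N02Rik cover.

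Promoter windows from RefSeq (GRCm38.p6) are shown because Dnah8 and 1700097N02Rik start back to back in RefSeq and were both lower in ICOS KO. Another reason is that the RefSeq start of Glo1 lies 14.2 kb inside the GENCODE gene. For Dnah8 the RefSeq start lies 2.58 kb inside its GENCODE gene. Each window holds 250 bases before and 50 after the start, written 5′ to 3′ on the strand of the gene, and windows were found for 3 of the 4 genes, all but Btbd9. In the Glo1 window (chr17:30612610-30612909, minus strand), capitals mark matches on either strand to CCAAT (the CCAAT box) and GGGCGG (the GC box). In the windows of Dnah8 (chr17:30626686-30626985, plus strand) and 1700097N02Rik (chr17:30626856-30627155, minus strand), capitals mark the 130 bases that both windows share.
Glo1: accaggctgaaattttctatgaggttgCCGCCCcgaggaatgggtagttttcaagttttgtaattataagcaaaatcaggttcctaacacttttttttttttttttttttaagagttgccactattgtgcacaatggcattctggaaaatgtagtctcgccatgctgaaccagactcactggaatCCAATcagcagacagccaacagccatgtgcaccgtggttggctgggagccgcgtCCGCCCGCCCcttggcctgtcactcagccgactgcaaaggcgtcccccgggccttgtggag
Dnah8: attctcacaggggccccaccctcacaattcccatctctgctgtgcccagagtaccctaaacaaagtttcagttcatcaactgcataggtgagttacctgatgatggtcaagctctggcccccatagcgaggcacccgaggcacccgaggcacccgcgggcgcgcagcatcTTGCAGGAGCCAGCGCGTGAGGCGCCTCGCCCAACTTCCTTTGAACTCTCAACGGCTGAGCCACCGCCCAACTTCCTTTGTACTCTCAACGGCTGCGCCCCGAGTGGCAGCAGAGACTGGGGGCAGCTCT
1700097N02Rik: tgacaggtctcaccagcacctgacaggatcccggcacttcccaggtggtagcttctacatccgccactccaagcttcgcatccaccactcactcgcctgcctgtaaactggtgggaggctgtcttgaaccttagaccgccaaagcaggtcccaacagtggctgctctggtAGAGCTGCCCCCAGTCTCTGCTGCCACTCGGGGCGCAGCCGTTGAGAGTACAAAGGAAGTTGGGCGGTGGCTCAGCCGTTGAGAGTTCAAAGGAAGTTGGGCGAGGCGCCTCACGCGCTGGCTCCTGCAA
The Glo1 window held 1 CCAAT match, whose first base is at -65 from the start, and 3 GGGCGG matches on the reverse strand, at -223, -11 and -7, of which the last 2 overlap. A CCAAT match was present in 37.4% of 32851 RefSeq windows of this length and a GGGCGG match in 35.7%. The Dnah8 and 1700097N02Rik windows hold a GGGCGG match at the same place in their shared bases. No match to TGACNNNGC, the core of the antioxidant response element (12.4% of windows), or to TATAAA, the TATA box (13.6%), was found in these 3 windows. GC made up 49.7% of the Glo1 window and 60.3% of each of the other 2.

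Library totals ran from 13738062 to 15543034 estimated counts in ICOS KO and from 14976130 to 18736474 in WT, and a floor of 3 reads was at most 0.225 CPM (counts scaled to a common library size with TMM factors) in any library, which covers counting error only. No label ties a library to a mouse or culture of its own. The p-values therefore reflect variation among the 6 libraries, and that may be technical. Icos, the targeted gene, averaged 157 ± 15.6 CPM in ICOS KO and 466 ± 33.9 CPM in WT (SD, n = 3 each). All 10 ILC2 markers of the list used had values, and their sum, mostly Il5 and Il2ra, was 9705 to 10471 CPM in ICOS KO and 9315 to 10409 CPM in WT. Of these markers 4 were called (40%, against 3.29% of all tested genes). Klrg1 (log2 fold change 1.21), Areg (1.41) and Il1rl1 (0.45) were higher in ICOS KO and Rora (-0.47) was lower. Il1rl1 lost its call without WT replicate 1, 2 or 3, without the third ICOS KO library, with library totals alone and with no filter, and Rora lost it without WT replicate 1 or 2 or the third ICOS KO library. Over all genes, 451 of 13691 passed an edgeR adjusted p of 0.05, 176 higher and 275 lower in ICOS KO. Scaled by library totals alone, the split was 127 higher and 324 lower. The count of 451 became 193 without WT replicate 1, 194 without WT replicate 2, 1090 without ICOS KO replicate 1 and 216 without ICOS KO replicate 3.

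Glo1, the enzyme gene, was the most abundant of the 4. It stood at 237, 256 and 229.6 CPM in the ICOS KO libraries and at 609, 620.3 and 602 CPM in the WT libraries. The highest ICOS KO library lay far below the lowest WT library, and the WT libraries differed from each other by little. The means were 241 ± 13.8 CPM in ICOS KO and 611 ± 9.11 CPM in WT (SD, n = 3 each), so ICOS KO held 39.5% of the WT level. The fitted log2 fold change was -1.34 ± 0.09 (SE). In all 4 genes the ICOS KO libraries lay below the WT libraries without overlap, as did 12.5% of tested genes. All 4 were also lower at an adjusted p of 0.05, as were 2.01% of tested genes. Both counts follow from how the genes were chosen, and nothing is read from them. Fewer cells of a type and less RNA per cell cannot be told apart in such bulk libraries.

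Btbd9 showed the largest difference of the 4 on the log2 scale. It stood at 25.4, 30.9 and 26.4 CPM in ICOS KO and at 109, 107 and 90.6 CPM in WT. Every ICOS KO library was below every WT library, and WT replicate 3 was the lowest of its group. The means were 27.6 ± 2.93 CPM in ICOS KO and 102 ± 10.3 CPM in WT (SD, n = 3 each), or -1.89 ± 0.13 on the log2 scale in the fit, with ICOS KO at 26.9% of WT. Estimated counts of Btbd9 were 356 to 411 in ICOS KO libraries and 1382 to 2088 in WT libraries, far above the floor.

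1700097N02Rik stood at 13.1, 18.8 and 18.6 CPM in ICOS KO and at 47.6, 61.7 and 57.7 CPM in WT. Replicate 1 was the lowest library in each genotype. The means were 16.8 ± 3.23 CPM in ICOS KO and 55.7 ± 7.25 CPM in WT (SD, n = 3 each), and the fitted log2 fold change was -1.73 ± 0.17. This RNA had the widest spread among ICOS KO libraries of the 4 genes, with an SD of 19.2% of the mean against 5.71% for Glo1.

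Dnah8, the flagellar dynein gene, stood at 40.04, 44.6 and 40.7 CPM in ICOS KO and at 75.7, 97.4 and 83.7 CPM in WT. The groups did not overlap, but the lowest WT library was only 1.7-fold above the highest ICOS KO library, the narrowest gap of the 4. The means were 41.8 ± 2.50 CPM in ICOS KO and 85.6 ± 11.0 CPM in WT (SD, n = 3 each), which the fit put at -1.03 ± 0.12 on the log2 scale. Within ICOS KO, replicate 2 was the highest library for all 4 genes. Within WT no library was highest for all 4: replicate 1 led for Btbd9 and replicate 2 for the others.

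**Figure D2:**
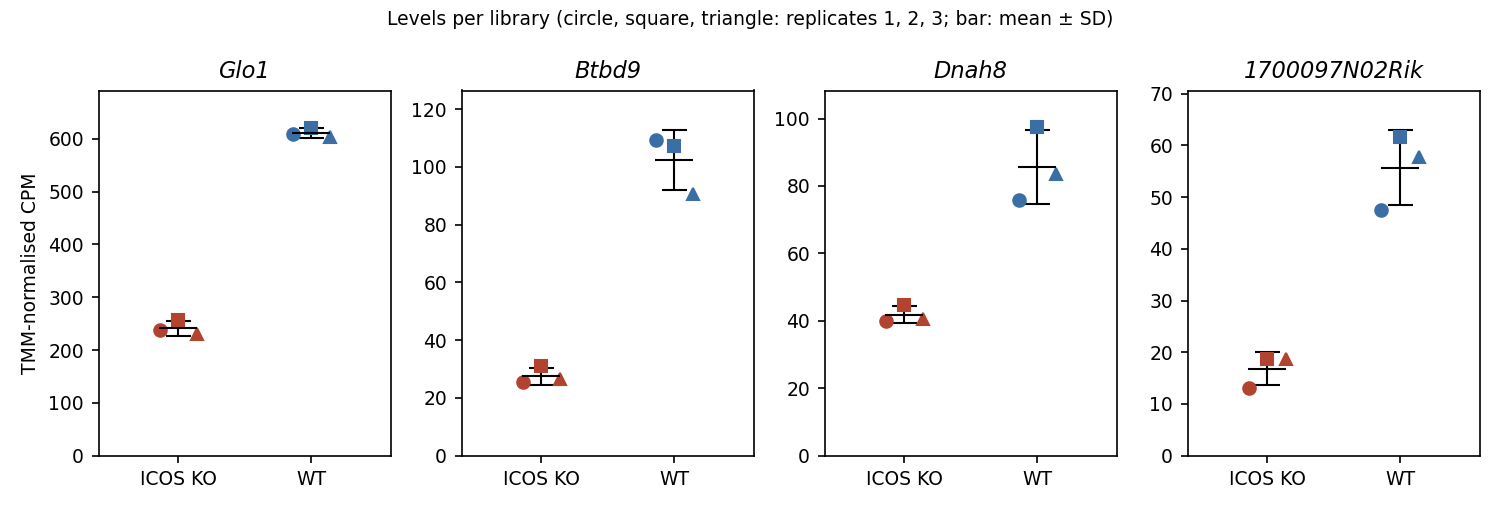
TMM-normalised CPM of the 4 genes in each library, with ICOS KO left of WT, a panel and a linear axis from 0 for each gene, and bars for the mean ± SD of 3 libraries. Every ICOS KO library lies below every WT library, with Glo1 at 229.6 to 256 CPM in ICOS KO and 602 to 620.3 CPM in WT.

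Ranked by log2 fold change among all 13691 tested genes, the falls of the 4 genes were the 108th (Btbd9), 137th (1700097N02Rik), 261st (Glo1) and 453rd (Dnah8) largest. On a scale of CPM per kb of exon, the 4 formed a high and a low pair. This scale depends on the exon length taken for each gene and on how shared reads were counted. Glo1 averaged 19.9 CPM per kb in ICOS KO and 50.5 in WT, and 1700097N02Rik 19.9 in ICOS KO and 65.9 in WT. Btbd9 averaged 1.51 CPM per kb in ICOS KO and 5.63 in WT, and Dnah8 1.56 in ICOS KO and 3.19 in WT. In ICOS KO the libraries of Btbd9 (1.39 to 1.70 CPM per kb) and of Dnah8 (1.49 to 1.66) overlapped, and so did those of Glo1 and 1700097N02Rik. In WT neither pair overlapped: 1700097N02Rik, at 56.3 to 73.0 CPM per kb, was above Glo1, at 49.8 to 51.3, and Btbd9, at 4.98 to 6.01, was above Dnah8, at 2.82 to 3.63. These lengths are exon unions of GENCODE M21, and the sources used here do not say which annotation the counting used.

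The proportions between the 4 genes were not the same in both genotypes. Btbd9 made up 10.7%, 12.1% and 11.5% of the Glo1 CPM of the same library in ICOS KO, against 17.96%, 17.3% and 15.04% in WT. Dnah8 went the other way, at 16.9%, 17.4% and 17.7% of Glo1 in ICOS KO and 12.4%, 15.7% and 13.9% in WT. Neither ratio overlapped between the genotypes. The ratio of 1700097N02Rik to Glo1 did overlap, at 5.53% to 8.12% in ICOS KO and 7.81% to 9.94% in WT. These ratios rest on the values that chose the genes and were not tested. Because Glo1, Dnah8 and 1700097N02Rik overlap in GENCODE M21, though not in RefSeq, their CPM were also summed. A division of shared reads among them then cancels out as far as no read was dropped. The sum was 290.4, 319.8 and 288.9 CPM in ICOS KO and 733, 779 and 744 CPM in WT, a log2 ratio of means of -1.33. Glo1 makes up most of that sum.

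**Figure D3:**
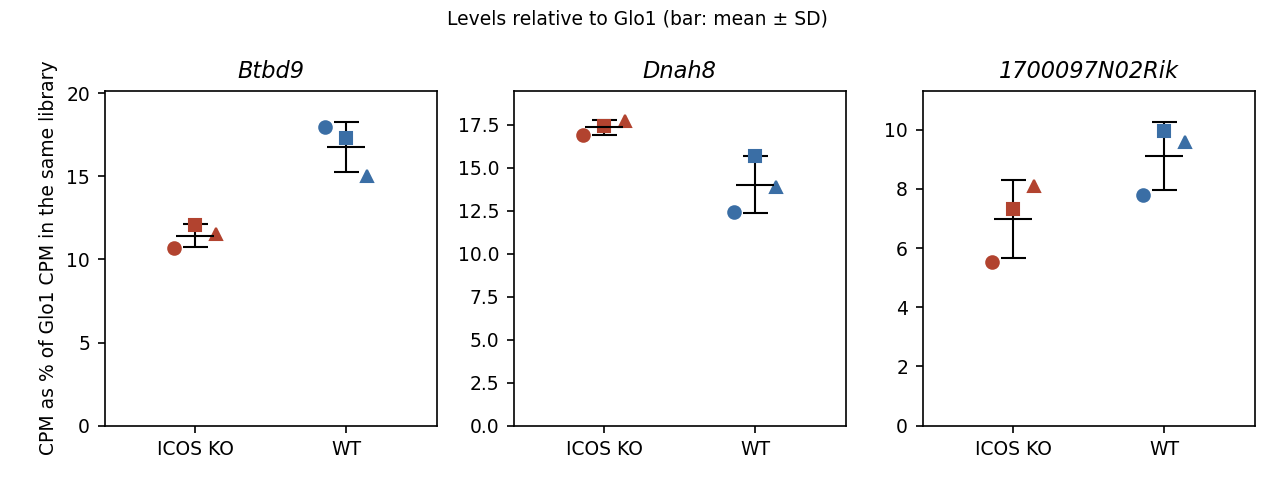
CPM of Btbd9, Dnah8 and 1700097N02Rik as a percentage of Glo1 CPM in the same library, with ICOS KO left of WT, points for libraries and bars for the mean ± SD of 3. Btbd9 lies lower in ICOS KO (10.7% to 12.1%) than in WT (15.04% to 17.96%), and Dnah8 lies higher (16.9% to 17.7% in ICOS KO, 12.4% to 15.7% in WT).

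The other table genes inside the segment carried few reads. Gm9874, on the strand opposite Btbd9 and inside it, had estimated counts of 1, 0 and 0 in ICOS KO and 19, 12 and 4 in WT. It was too low to be tested. Gm8373, a pseudogene inside Glo1, averaged 1.95 ± 0.40 CPM in ICOS KO and 3.97 ± 1.93 CPM in WT (SD, n = 3 each), and its groups overlapped (log2 fold change -1.02 ± 0.43, edgeR adjusted p = 0.218). Gm6402, a pseudogene inside Btbd9, was at 0.25 ± 0.59 on the log2 scale in the same fit (edgeR adjusted p = 0.845), on 7.19 to 14 estimated counts a library. Reads of the pseudogenes can be shared with near copies. Outside the segment, Glo1-ps on chromosome 2, named as a pseudogene of Glo1, was also called lower in ICOS KO. Reads of Glo1 and Glo1-ps could have been divided in counting, which was not tested.

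Outside the segment, no gene among the nearest neighbours was called lower. The 15 tested genes nearest on each side were taken by position alone. Among these 30 genes, 1 was higher and 0 were lower in ICOS KO at an edgeR adjusted p of 0.05, against 1.29% of tested genes called higher and 2.01% called lower. At an unadjusted p under 0.05 there were 10 of the 30, against 19.9% of all tested genes, and DESeq2 called 2, voom 1 and voom with quality weights 1. The median log2 fold change was 0.05 over the 30, against -0.0035 over all tested genes.

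Zfand3, a zinc finger gene 4.7 kb beyond the end of Btbd9, stood at 7.36, 10.1 and 7.79 CPM in ICOS KO and at 6.87, 5.68 and 5.44 CPM in WT. Its log2 fold change was 0.49 ± 0.24 (edgeR adjusted p = 0.286). No direction is read from Zfand3, the nearest tested gene on that side, because it was not called. Next to it, 498 kb from the segment, Ccdc167 was at 0.47 ± 0.19 on the log2 scale (edgeR adjusted p = 0.204). On the Dnah8 side, 180 kb away, Abcg1, a cholesterol transporter, averaged 14.6 ± 1.14 CPM in ICOS KO and 13.9 ± 2.21 CPM in WT (edgeR adjusted p = 0.848). Tff1, a trefoil peptide gene, averaged 5.71 ± 1.499 CPM in ICOS KO and 2.67 ± 0.70 CPM in WT (SD, n = 3 each; edgeR adjusted p = 0.109). DESeq2 called Tff1 at an adjusted p of 0.042, within a range of 0.042 to 0.333 over its alternatives. Glp1r, the receptor of glucagon-like peptide 1 and the first table gene beyond Dnah8, had estimated counts of 4, 0 and 0 in ICOS KO and 15, 5 and 1 in WT, too low to be tested.

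Ubash3a was the gene called in these flanks. It encodes a protein that dampens antigen receptor signalling in T cells, and it lies on chromosome 17 from 31207873 to 31246892, 331 kb beyond Dnah8. It stood at 35.01, 37.1 and 37.6 CPM in ICOS KO and at 17.4, 18.04 and 16.1 CPM in WT. The groups did not overlap, and replicates lay close together. Ubash3a rose by 1.09 ± 0.13 on the log2 scale (edgeR adjusted p = 0.000954), opposite in sign to the 4 genes. It remained called in all 15 alternatives, with adjusted p up to 0.00998.

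Over all tested genes, 1.29% were called higher in ICOS KO and 2.01% lower, so few calls of either kind are due in a small set. Within 3 Mb of the start of Glo1, 82 tested genes other than the 4 had a median log2 fold change of 0.04. Of these 82, 3 were called, all higher in ICOS KO. Besides Ubash3a these were Pglyrp2, a peptidoglycan recognition protein gene, at 55.8 ± 3.98 CPM in ICOS KO and 35.2 ± 1.02 CPM in WT (SD, n = 3 each; edgeR adjusted p = 0.0100), and Cyp4f13. Cyp4f13, a cytochrome P450 gene of a cluster of near copies, was at 18.4 ± 2.72 CPM in ICOS KO and 8.78 ± 3.01 CPM in WT (edgeR adjusted p = 0.0434). Pglyrp2 lost its call when WT replicate 1, WT replicate 2 or the third ICOS KO library was left out (adjusted p up to 0.071 over the alternatives). Cyp4f13 lost it without WT replicate 1 or 2, without ICOS KO replicate 2 or 3, with library totals alone and with no filter (adjusted p up to 0.122). These 2 lie outside the nearest 15 and were named after their values were seen. Of the 82, 2 had a log2 fold change at or below the -1.03 of Dnah8, and neither was called. Among all 13691 tested genes the fall of Dnah8 ranked 453rd, so such falls were uncommon in the whole table too.

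**Figure D4:**
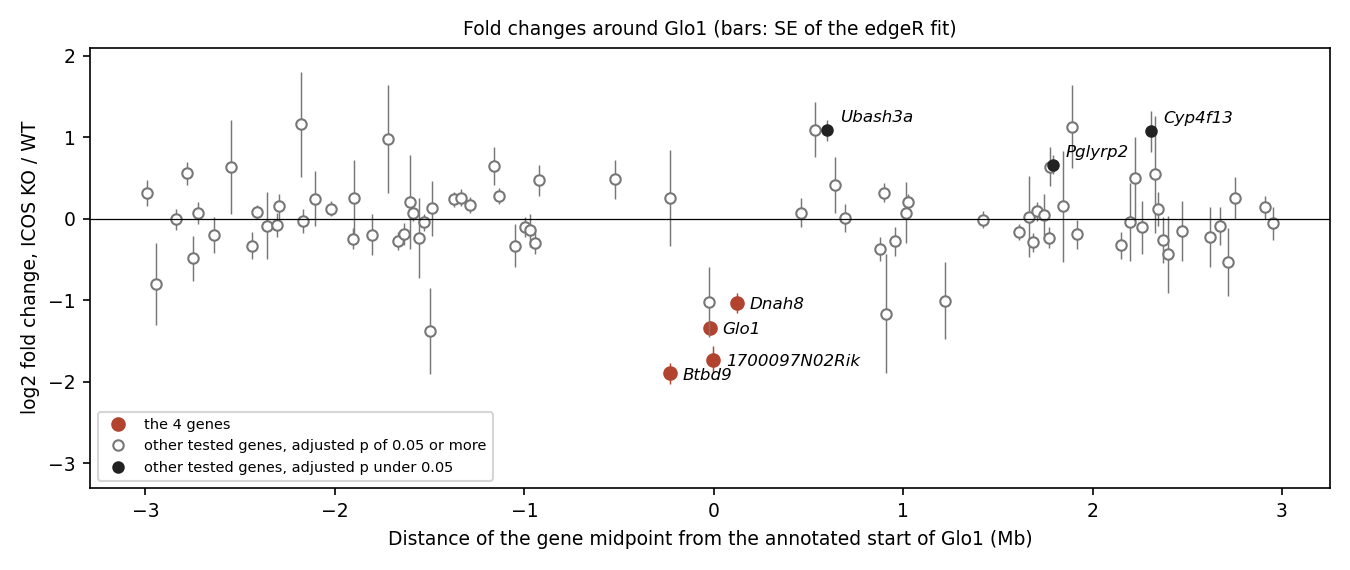
Log2 fold change of ICOS KO over WT, with bars for the SE of the edgeR fit, against the distance in Mb of each gene's midpoint from the GENCODE start of Glo1. The 4 genes (red) lie between -1.89 and -1.03, and the called genes near them, Ubash3a, Pglyrp2 and Cyp4f13 (black), lie above 0.

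Some of the genes that handle methylglyoxal and other carbonyls beside Glo1 passed the test. Of 21 genes on a list of carbonyl detoxification, 20 were tested, of which Park7 rose and Ldhd and Aldh2 fell. These 3 made up 15% of the list, beside 3.29% called over all tested genes. The list was written with earlier results of these data known, so nothing is read from that share. The median log2 fold change was -0.0013, with 10 genes positive and 10 negative. Hagh, the next enzyme after Glo1, stood at 42.5, 46.2 and 44.4 CPM in ICOS KO and at 48.8, 53.1 and 48.8 CPM in WT. Its log2 fold change of -0.18 ± 0.11 did not pass the threshold (edgeR adjusted p = 0.394). Akr1a1, an aldo-keto reductase gene whose product can reduce methylglyoxal, averaged 591 ± 15.9 CPM in ICOS KO and 621 ± 43.9 CPM in WT (edgeR adjusted p = 0.673).

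Ldhd, which encodes D-lactate dehydrogenase (chromosome 8, 111623785 to 111630374), had the largest difference of that list. It stood at 6.46, 3.31 and 4.53 CPM in ICOS KO and at 21.4, 22.6 and 21.1 CPM in WT. All ICOS KO libraries were well below the WT libraries, which lay close together. Ldhd fell by 2.18 ± 0.23 on the log2 scale (SE; edgeR adjusted p = 0.000448), and kept its call in all 15 alternatives, with adjusted p up to 0.00633. It overlaps Znrf1, so reads of the pair may have been divided in counting. Aldh2, mitochondrial aldehyde dehydrogenase, fell to 29.3 ± 4.09 CPM in ICOS KO, against 52.5 ± 2.004 CPM in WT (SD, n = 3 each; -0.84 ± 0.13 on the log2 scale, edgeR adjusted p = 0.00514); it overlaps the predicted gene Gm42879. Park7, which encodes the protein DJ-1, rose to 490 ± 63.6 CPM in ICOS KO, against 358 ± 15.3 CPM in WT (edgeR adjusted p = 0.041). The call depended on each of the WT libraries, being lost without replicate 1, 2 or 3 of WT, without ICOS KO replicate 2 or 3 and with library totals alone (adjusted p from 0.00292 to 0.199 over the alternatives).

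Of 20 tested genes of glutathione supply and use, Gstp1 was called, as higher (5% of the list, against 3.29% of all tested genes). At an unadjusted p under 0.05 there were 10 (50%, against 19.9% of all tested genes), and the median log2 fold change was -0.10. Gstp1, a glutathione S-transferase with near copies, averaged 503 ± 79.0 CPM in ICOS KO and 352 ± 38.7 CPM in WT (SD, n = 3 each; edgeR adjusted p = 0.0466). The call was lost without WT replicate 1 or 2, without ICOS KO replicate 2 or 3, with library totals alone and with no filter (adjusted p from 0.00282 to 0.216 over the alternatives). Mgst3, a microsomal glutathione transferase, averaged 9.17 ± 0.61 CPM in ICOS KO and 15.02 ± 1.47 CPM in WT (edgeR adjusted p = 0.0584). With library totals alone, the only call of the list was Mgst3, as lower (adjusted p = 0.0392, within 0.0189 to 0.164 over its alternatives). DESeq2 called 4 genes of this list, 3 higher and 1 lower, and voom with quality weights 2.

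Among 8 genes of the glycolytic steps that form and use triose phosphates, the source of methylglyoxal, Aldoc was called. That was 12.5% of the list, against 3.29% of all tested genes. Aldoc, aldolase C, rose to 25.4 ± 5.64 CPM in ICOS KO, against 13.72 ± 1.74 CPM in WT (SD, n = 3 each; 0.89 ± 0.19 on the log2 scale, edgeR adjusted p = 0.0246). Without WT replicate 1, WT replicate 2 or ICOS KO replicate 3 it lost its call (adjusted p from 0.000776 to 0.126 over the alternatives). Aldoa, the abundant aldolase, averaged 4032 ± 68.3 CPM in ICOS KO and 3528 ± 39.9 CPM in WT (edgeR adjusted p = 0.131), and Tpi1, triose phosphate isomerase, 1280 ± 56.6 CPM in ICOS KO and 1162 ± 25.3 CPM in WT (edgeR adjusted p = 0.324).

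None of 44 tested genes of cullin 3, its neddylation enzymes and its BTB adaptors was called by edgeR, 11 had an unadjusted p under 0.05 (25.0%, against 19.9% of all tested genes), and the median log2 fold change was -0.15. DESeq2 called 2, voom none and voom with quality weights 2, and the count was 2 without ICOS KO replicate 1. Cul3 itself averaged 17.4 ± 2.103 CPM in ICOS KO and 18.5 ± 2.20 CPM in WT (SD, n = 3 each; edgeR adjusted p = 0.799). Klhl21, an adaptor gene, averaged 22.0 ± 2.13 CPM in ICOS KO and 31.9 ± 2.71 CPM in WT (edgeR adjusted p = 0.0656), and Ankfy1, a BTB-domain endosomal protein gene, 24.1 ± 3.94 CPM in ICOS KO and 35.1 ± 2.42 CPM in WT (edgeR adjusted p = 0.0825). Klhl21 had an adjusted p of 0.0204 to 0.287 over its alternatives and Ankfy1 of 0.0241 to 0.285.

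None of 25 iron-handling genes was called by edgeR either, 6 had an unadjusted p under 0.05 (24.0%, against 19.9% of all tested genes), and the median log2 fold change was -0.04. DESeq2 and voom called none, voom with quality weights 1, and the count was 1 without ICOS KO replicate 1. Tfrc, the transferrin receptor gene, averaged 120.3 ± 18.9 CPM in ICOS KO and 125 ± 6.48 CPM in WT (SD, n = 3 each; edgeR adjusted p = 0.839). Ftl1, the ferritin light chain gene, averaged 17325 ± 1850.1 CPM in ICOS KO and 14315 ± 692 CPM in WT (edgeR adjusted p = 0.0878), and overlaps the predicted gene Gm10252. Hmox1, which encodes heme oxygenase 1, averaged 150.1 ± 20.8 CPM in ICOS KO and 185 ± 11.4 CPM in WT (edgeR adjusted p = 0.183).

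Of 25 listed genes of other axonemal dyneins and their assembly factors, 12 had values and 6 were tested. Of the 6 tested, 1 was called (16.7%, against 3.29% of all tested genes). Dnah17, another dynein heavy chain gene, fell by 4.02 ± 0.48 on the log2 scale (SE; edgeR adjusted p = 0.000881). It stood at 0.646, 3.23 and 0.445 CPM in ICOS KO and at 22.2, 25.03 and 22.03 CPM in WT. ICOS KO replicate 2 was the highest of its group, and without it the log2 fold change was -5.36. Dnah17 overlaps Pgs1 and Gm11738, so its reads may not all be its own. The other 4 dynein heavy chain genes that were too low to test reached at most 1.13 CPM in any library. Dnaaf5, an assembly factor gene that also overlaps a predicted gene, was at -0.54 ± 0.23 on the log2 scale (edgeR adjusted p = 0.219) and was called without WT replicate 3, which brought the list's count to 2.

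**Figure D5:**
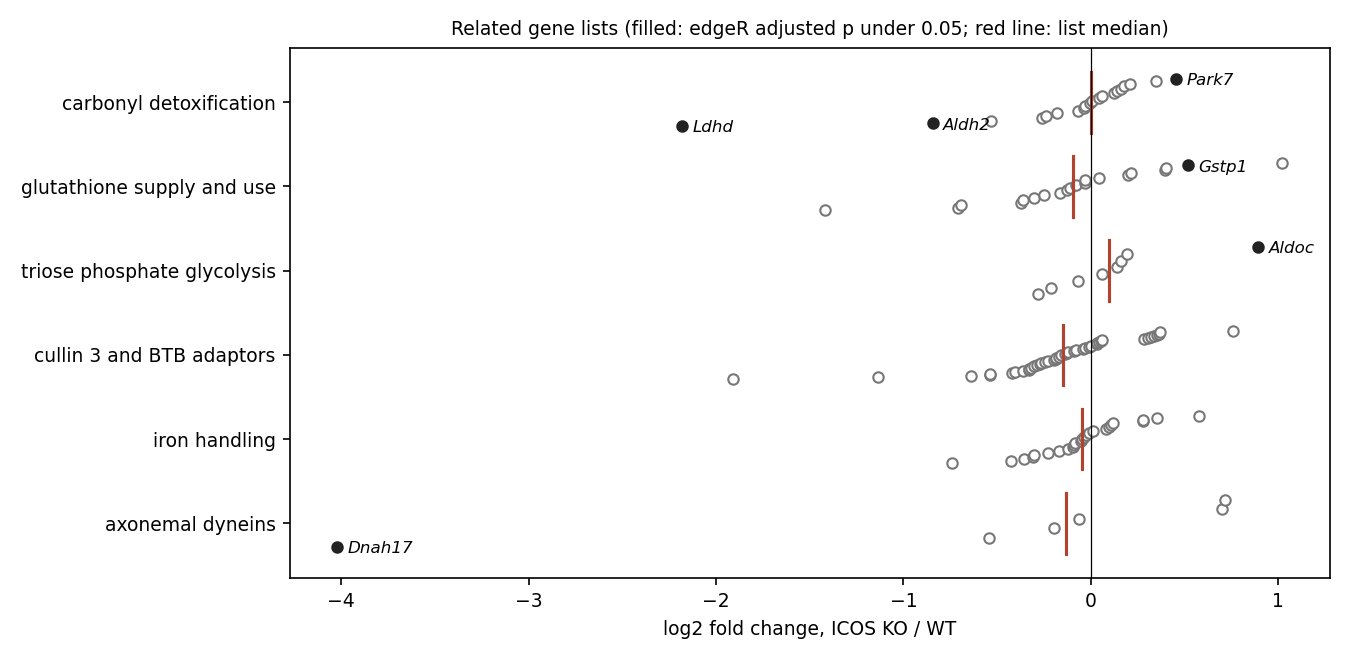
Log2 fold change of ICOS KO over WT for the tested genes of 6 lists, with a point per gene, filled where the edgeR adjusted p was under 0.05, and a red line for each list's median. The filled points are Ldhd, Aldh2 and Dnah17 on the lower side and Park7, Gstp1 and Aldoc on the higher side.

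Markers of other cell types were read beside these values. Of 10 ciliated epithelium markers, 3 had values analysed here: Ccdc40 and Cfap43 were under 1 CPM in every library, and the broadly expressed tubulin gene Tubb4b stood at 960 to 1078 CPM in ICOS KO and 957 to 1037 CPM in WT. Mast cell and basophil markers (10 of 10 with values) summed to 35.6 to 39.8 CPM in ICOS KO and 119 to 129 CPM in WT. Of the 8 tested, 6 were called lower (75%, against 2.01% of all tested genes). Kit, the largest part of the sum in ICOS KO, was flat, at a mean of 20.2 CPM in ICOS KO and 20.3 CPM in WT (edgeR adjusted p = 0.998). Hdc was not called either (edgeR adjusted p = 0.178). Cpa3, which encodes a mast cell protease, stood at 0.451 to 2.52 CPM in ICOS KO and 25.1 to 31.5 CPM in WT, and Fcer1a, a chain of the IgE receptor, at 0 to 0.225 CPM in ICOS KO and 1.63 to 1.78 CPM in WT. Macrophage markers (8 of 8 with values) summed to 63.7 to 103 CPM in ICOS KO and 104 to 155 CPM in WT, and the ranges of the B cell sum, 29.9 to 46.6 CPM in ICOS KO and 25.8 to 27.4 CPM in WT, rested on 5 of 8 markers. T cell markers (8 of 8) summed to 55.4 to 76.1 CPM in ICOS KO and 49.9 to 69.5 CPM in WT, mostly from Cd3g, which averaged 63.3 CPM in ICOS KO and 48.2 CPM in WT. Cd3e, another chain of the T cell receptor complex, averaged 2.30 CPM in ICOS KO and 8.87 CPM in WT and was called lower (edgeR adjusted p = 0.0281). That call was lost when any WT library or the third ICOS KO library was left out. Cd8a and Cd8b1 were at 0 in every ICOS KO library and averaged 0.44 and 0.35 CPM in WT. Among the macrophage markers Csf1r was called lower and among the B cell markers Cd79b was called higher. Csf1r lost its call without WT replicate 1 or the third ICOS KO library. Cd79b lost it without any one WT library or the third ICOS KO library, and with library totals alone, voom and no filter. The part of these cells in the values of the 4 genes was not tested.

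The genes whose pattern over the 6 libraries lay nearest to that of Glo1 were on other chromosomes. Likeness was the root mean square difference of log2 CPM, centred on each gene's mean, among 10067 tested genes with at least 5 CPM in the higher group. The nearest to Glo1 were P2ry1, a purinergic receptor gene (0.10 on the log2 scale), Mmp12, a macrophage elastase gene (0.13), Cd36, a fatty acid scavenger receptor gene (0.14), Rbpms (0.14) and Arnt2 (0.15). Mmp12 stood at 158 to 164 CPM in ICOS KO and 334 to 405 CPM in WT. Nearest to Btbd9 were Rfwd3, a ubiquitin ligase gene (0.08), Plscr4 (0.11), Csf2, which encodes GM-CSF (0.12), Lta, which encodes lymphotoxin alpha (0.13), and Hapln3 (0.20). Rfwd3 stood at 21.6 to 23.5 CPM in ICOS KO and 73.2 to 93.5 CPM in WT. Lta is also on chromosome 17 but far from the segment. Dnah8 ranked 19th and Btbd9 87th in nearness to Glo1, and 1700097N02Rik ranked 7th in nearness to Btbd9. This measure largely follows the size of the difference between ICOS KO and WT. The genes named as nearest to Glo1 had log2 fold changes of -1.32 to -1.15, beside -1.34 for Glo1. Those nearest to Btbd9 had -1.89 to -1.74, beside -1.89 for Btbd9. That difference chose the genes of the segment, so nothing about the segment is read from these ranks or chromosomes.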

How the data were processed

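Estimated counts per gene for 6 libraries are the values the authors deposited, library by library. Per the submitters' processing notes, STAR 2.7.8, Partek 10.0, DESeq2 and the build mm10 were used; the annotation, the counting and its strand setting were not given in the sources used here. Of the values 34.5% were more than 0.001 from a whole number, so estimated counts were rounded. Per the labels' protocols, cDNA was made from 10 pg of RNA with a low-input PCR kit, and PCR reads without molecular identifiers are not independent molecules. Libraries were matched to groups by library name.

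Genes were kept with filterByExpr, scaled by TMM and compared between ICOS KO and WT by edgeR 4.0.16 (its quasi-likelihood test, no covariates; R 4.3.3, limma 3.58.1). Adjusted p-values are Benjamini-Hochberg over 13691 genes. SE follow from the F statistic. The fit was tested on simulated counts. No pair of libraries agreed within sampling noise (chi-square per degree of freedom at least 8.85). Positions came from GENCODE M21 for 17691 genes and RefSeq for 353; 78 had none.

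The 4 genes and all lists were chosen with earlier results of these data known. Named were the 4 genes, the 2 nearest flanking genes and any called one on each side. Also named were called members of each list or else the 2 of smallest p, and the 5 nearest patterns to Glo1 and to Btbd9. Hagh, Akr1a1, Tpi1, Cul3, Tfrc, Glp1r, Glo1-ps and markers, called or not, were added for their role, name or place. Alternatives were RLE, upper-quartile and library-total scaling, DESeq2 1.42.0, voom with and without quality weights, no filter, at least 5 CPM in 3 libraries, a replicate block and each library left out.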

Additional observations from a re-analysis of the deposited data

How the results depend on the processing

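The log2 fold changes of the 4 genes stayed negative in all 15 alternatives. The genes were chosen from these values, so nothing is read from the sign. Leaving out each library in turn, Glo1 ranged from -1.38 to -1.31, Btbd9 from -1.98 to -1.84, Dnah8 from -1.12 to -0.93 and 1700097N02Rik from -1.83 to -1.57. With library totals alone Glo1 was at -1.41, a move larger than its spread between libraries. The count over all genes was 929 with DESeq2, 906 with voom and quality weights, and 193 to 1090 with a library left out. Genes called among the flanks were 2 with DESeq2. Glutathione genes called were 4 with DESeq2, 2 with weighted voom, 0 with no filter and 0 to 2 with a library left out; with library totals alone the 1 call was lower, not higher. Cullin 3 and BTB adaptor genes called were 1 with library totals alone, 2 with DESeq2, 2 with weighted voom and 0 to 2 with a library left out. For iron handling they were 1 with weighted voom and 0 to 1 with a library left out, for triose phosphate glycolysis 0 to 1, for carbonyl detoxification 2 to 3 and for axonemal dyneins 1 to 2. Runs of neighbouring called genes numbered 63 with DESeq2, 66 with weighted voom, 22 with no filter and 14 to 70 with a library left out. Among single genes, Abcg1 (-0.031 to 0.196, below 0 without WT replicate 2), Tfrc (-0.174 to 0.0486, above 0 without ICOS KO replicate 3) and Gm6402 (-0.0396 to 0.555, below 0 without WT replicate 1) changed sign with a library left out. The cause of these moves was not tested. With 3 libraries a group, the count of calls depended on which library was left out.

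Same-numbered libraries shared only a number: their deviations correlated at 0.064 to 0.087, although each of the 6 libraries correlated best with its own number, a hint from the data and not the design. With the replicate number as a block, 784 genes were called, with 3 in the glutathione, 1 in the cullin 3 and 1 in the iron list.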

Other observations

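Neighbouring genes called together were found elsewhere in the genome. In genome order, 35 runs of at least 2 consecutive tested genes were called in the same direction, 24 lower and 11 higher in ICOS KO, holding 79 genes. In the segment, 1700097N02Rik and Dnah8 formed such a run, which is counted among the 35 although both genes were chosen from these values. The low pseudogenes Gm6402 and Gm8373 stand between the others in this order. Runs of at least 3 numbered 8. On chromosome 17 these were the MHC class II genes H2-Ab1, H2-Aa, H2-Eb1 and H2-Ea, which present antigen, and the cytokine genes Ltb, Tnf and Lta, all lower in ICOS KO. Fcmr, Il24 and Il10 on chromosome 1 were higher, as were Errfi1, Park7 and Tnfrsf9 on chromosome 4, so that Park7, named above for carbonyl detoxification, was called together with both of its tested neighbours.

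Chromosome 17 without the 4 genes had 704 tested genes; 14 rose and 18 fell in ICOS KO, a share of 4.55% against 3.29% of all tested genes.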
